A study of Mus musculus with 4 samples.

Results

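The Gimap genes encode GTPases of immunity-associated proteins, a family of GTP-binding proteins found mainly in lymphocytes. All array features that the scanner files name Gimap1, Gimap3, Gimap4, Gimap5, Gimap6, Gimap7, Gimap8 or Gimap9 were taken, which gave 8 of the 32562 genes named on the array and 12 of its 56605 probes. Gimap1, Gimap3, Gimap6 and Gimap7 had 1 probe each, and Gimap4, Gimap5, Gimap8 and Gimap9 had 2 each. The 12 probes were well above background on all 4 arrays, so no member was lost to a filter on dim values.

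GIMAP proteins share a GTP-binding domain related to that of the septins, and most of them sit on intracellular membranes such as lysosomes, mitochondria or the Golgi. Several are needed for the survival of resting lymphocytes: animals lacking Gimap5 lose most of their naive T cells, and loss of Gimap1 depletes mature T and B cells. Gimap4 and Gimap3 have been tied to apoptosis through proteins of the Bcl2 family, and Gimap6 to autophagy.

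Transcripts were measured on single-colour Agilent arrays in 4 conditions with 1 array each, which were naive T cells and iTreg cells at 3 h, both from WT and from Nr4a-TKO. Nr4a-TKO cells lack the 3 nuclear receptors Nr4a1, Nr4a2 and Nr4a3, which T cell receptor signals induce, and were bred on C57BL/6J from floxed Nr4a1, floxed Nr4a2 and Nr4a3-/- mice. An iTreg cell is a regulatory T cell induced in vitro, here after 3 h on plate-coated anti-CD3 (2 µg/ml) with anti-CD28 (0.5 µg/ml), IL-2 (10 ng/ml), TGF-β1 (given as 0.2 or 0.5 ng/ml without saying which) and antibodies that block IFN-γ and IL-4. The comparisons ask how transcripts change as naive cells start to become iTreg cells and how this differs without the Nr4a factors.

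Naive CD4+ cells (CD44 low, Foxp3-) were Ly5.2+ donor cells from irradiated Rag2-/- recipients of bone marrow. The Nr4a-TKO cells came from recipients of Ly5.1 WT marrow mixed with Ly5.2 Nr4a-TKO marrow and the WT cells from recipients of WT marrow, so genotype and the kind of chimera cannot be told apart. Cells were sorted 6 weeks after transplantation. The study's legend on sorting names a Foxp3 hCD2-hCD52 knock-in allele for the Nr4a-TKO donor cells and none for the WT donor cells. The methods give an age of 6 to 8 weeks for mouse lines of the study, without tying it to these animals, and the driver of Cre is not given in the sources used here. In bulk samples such as these, fewer cells of a type and less RNA per cell cannot be told apart either.

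The arrays shared 1 slide and 1 scan, had between 64.9% and 67.6% of probes well above background, and had no saturated spots. Well above background on all 4 arrays were 8 of 8 CD4 T cell markers, 2 of 2 CD8 T cell, 4 of 4 Treg, 6 of 6 B cell, 3 of 6 myeloid (Itgam, Csf1r, Fcgr3), 3 of 4 erythroid, 1 of 4 NK cell (Eomes) and 1 of 4 endothelial markers (Pecam1), so the arrays also carry signal at genes of other cell types. The macrophage gene Adgre1, the NK cell gene Ncr1 and the endothelial gene Cdh5 were not well above background on any. Summed processed intensity, which is not scaled between arrays, was lower at 3 h than in naive T for the CD4 T cell markers (23007 to 20805 in WT, 21819 to 17075 in Nr4a-TKO) and for the B cell markers (777 to 551 and 833 to 693). It was lower as well for the CD8 T cell markers (131 to 97.3 and 115 to 69.5), the NK cell markers (83.1 to 39.5 and 35.7 to 32.2), the myeloid markers (40025 to 37450 and 40089 to 37069, of which Itgam made 37385 in WT naive T) and, mostly through Pecam1, the endothelial markers (437 to 99.6 and 448 to 98.1). The erythroid sum went from 147 to 144 and from 120 to 180. The Treg sum went from 1200 to 1539 and from 1229 to 1536, mostly through Il2ra, with median log2 differences of −0.07 and −0.03 over its 4 genes. The part of these in the Gimap results was not tested. Compared with WT, Nr4a1 and Nr4a2 had higher readings on both arrays labelled Nr4a-TKO, although that label names them as knocked out. The differences were 1.33 and 0.19 (log2) in naive T and 0.48 and 1.38 at 3 h, and Nr4a3 read 0.02 and 0.19 higher. Foxp3 read lower on the arrays labelled Nr4a-TKO in both stages (−1.31 and −1.35). The study reported lower Foxp3 in Nr4a-TKO iTreg cells at a later time. Whether the Nr4a probes lie in the deleted exons was not determined, so their readings cannot decide about the labels. Every Nr4a-TKO value below is that of the array labelled Nr4a-TKO.

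The genes lie together on mouse chromosome 6, and the member probes span 104.689 kb (mm9, the build of the files), from 48609834 to 48714522, in the order Gimap8, Gimap9, Gimap4, Gimap6, Gimap7, Gimap1, Gimap5 and Gimap3. Gimap6 and Gimap3 are on the minus strand and the other members on the plus strand. Because the family arose by duplication, the 60-base probes were compared with each other. Among the 62 pairs of probes for different members, the longest run of identical bases was 9 and the highest ungapped identity 56.6%. The dimmer Gimap4 probe and the dimmer Gimap9 probe are shown as an example of this divergence, with the 28 of 54 overlapping bases that match in capitals:

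Gimap4 (chr6:48640752-48640811, plus strand): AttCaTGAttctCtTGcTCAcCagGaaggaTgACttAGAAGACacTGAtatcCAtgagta

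Gimap9 (chr6:48627839-48627898, plus strand): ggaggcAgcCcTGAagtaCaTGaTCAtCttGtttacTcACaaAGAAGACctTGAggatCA

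The matching bases make 51.9% of that overlap. Probes were not compared with full transcripts, so cross-hybridisation, for example between the close paralogs Gimap3 and Gimap5, was not tested.

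Promoters are shown because several members moved together and the study concerns transcription factors. RefSeq (GRCm38.p6) promoter windows of 300 bases, from 250 before the transcript start to 50 after it, were found for all 8 members, with a pair of windows for Gimap8, and searched on both strands for 5 motifs. The Nr4a motif was in 0 of the 9 member windows in either form, AAAGGTCA, which 1.51% of all 32851 windows hold, or AAATGTCA, which 1.53% hold. The Ets motif AGGAAG was in 7 of 9 (all members except Gimap6) and in 35.4% of all windows. The Runx motif TGTGGT was in 3 of 9 (Gimap1, Gimap4, Gimap7) and in 16.8% of all, and the Foxo motif GTAAACA in 1 of 9 (Gimap3) and in 3.65% of all. A match is a string of letters and not a site. The 250 bases before the start follow for Gimap5, the 1 member that was not lower at 3 h, and for Gimap3 and Gimap7, which fell the most over both genotypes, with motif matches in capitals:

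Gimap5 (chr6:48745947-48746196, plus strand): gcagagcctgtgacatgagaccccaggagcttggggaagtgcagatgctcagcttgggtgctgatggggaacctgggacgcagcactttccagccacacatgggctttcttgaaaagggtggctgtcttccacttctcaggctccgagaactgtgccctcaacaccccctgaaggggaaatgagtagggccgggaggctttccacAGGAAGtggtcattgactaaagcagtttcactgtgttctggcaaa

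Gimap3 (chr6:48770852-48771101, minus strand): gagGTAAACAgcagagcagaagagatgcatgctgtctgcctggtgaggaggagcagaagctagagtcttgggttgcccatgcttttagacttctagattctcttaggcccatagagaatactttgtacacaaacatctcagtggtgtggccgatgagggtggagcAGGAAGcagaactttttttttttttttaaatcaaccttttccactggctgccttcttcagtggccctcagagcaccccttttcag

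Gimap7 (chr6:48718371-48718620, plus strand): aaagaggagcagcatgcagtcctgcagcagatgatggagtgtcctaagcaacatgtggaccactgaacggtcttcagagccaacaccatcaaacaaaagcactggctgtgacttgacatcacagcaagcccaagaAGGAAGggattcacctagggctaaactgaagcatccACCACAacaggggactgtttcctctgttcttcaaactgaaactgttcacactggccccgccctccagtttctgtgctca

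Counted from the transcript start, the Ets match begins at −45 in Gimap5, −85 in Gimap3 and −115 in Gimap7. In Gimap7, ACCACA is the Runx motif on the other strand, at −79. In Gimap3, GTAAACA is the Foxo motif, at −247.

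Several Gimap transcripts were lower after 3 h of iTreg culture in both genotypes, and Gimap5 was not. A gene was called higher or lower where the difference between arrays was more than 2-fold, which is 1 on the log2 scale. In WT cells 5 of 8 Gimap genes (Gimap3, Gimap4, Gimap6, Gimap7, Gimap9) were lower at 3 h and 0 were higher, against 8.55% lower and 8.4% higher among 23224 genes measured. In Nr4a-TKO cells 4 of 8 (Gimap3, Gimap4, Gimap7, Gimap9) were lower and 0 higher, against 7.98% and 7.78% of 23713 genes. The median log2 change of the 8 genes was −1.24 in WT, a 2.37-fold decrease, and −1.0 in Nr4a-TKO, where the medians of all genes were −0.05 and −0.02.

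With 1 array per condition these differences have no replicate spread and no test. The only error available is that between repeated spots of 1 probe on an array, from 284 to 286 probes per array, which gives a log2 change an SD of 0.17 in either genotype and covers neither cells nor animals. The size of the changes also rests on how arrays were scaled. With median scaling in place of quantile normalization the median change of the Gimap genes was −0.85 in WT and −0.68 in Nr4a-TKO, the number lower by more than 2-fold was 4 (Gimap3, Gimap4, Gimap7, Gimap9) and 2 (Gimap3, Gimap7), and the WT calls over all genes shifted from 1950 higher and 1985 lower to 2582 higher and 1642 lower.

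**Figure D1:**
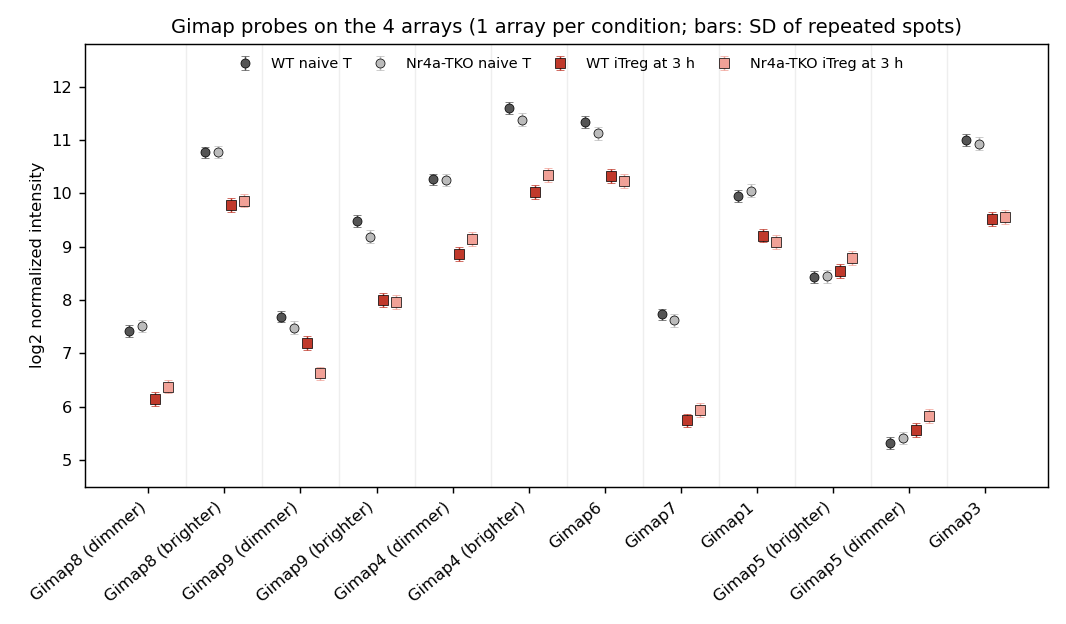
Log2 normalized intensity (vertical axis) of the 12 Gimap probes in chromosomal order, with 1 point per array and bars of 1 median SD between repeated spots of that array. Points can be compared within a probe and not between probes. The squares of the arrays at 3 h lie below the circles of naive T for 10 probes and above them for the 2 Gimap5 probes.

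Gimap3 and Gimap4, tied to T cell apoptosis, fell in both genotypes. Gimap3 measured 11.00 in WT naive T, 10.93 in Nr4a-TKO naive T, 9.52 in WT iTreg and 9.55 in Nr4a-TKO iTreg (log2 normalized intensity). Both naive arrays were above both arrays at 3 h, with a decrease of 2.79-fold in WT and 2.60-fold in Nr4a-TKO. The brighter Gimap4 probe measured 11.60, 11.38, 10.03 and 10.34 in the same order, which is a log2 change of −1.57 in WT and −1.04 in Nr4a-TKO. Its other probe, placed about 1 kb upstream, gave 10.26, 10.25, 8.86 and 9.14 and changes of −1.40 and −1.11. The 2 Gimap4 probes therefore fell by more than 2-fold in both genotypes, while the Nr4a-TKO value of the brighter one was −0.71 with median scaling, −0.87 with 75th percentile scaling and −0.85 in the table of log2 values that the authors deposited.

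Gimap1 and Gimap5, whose loss depletes resting lymphocytes, differed from each other: Gimap1 was lower at 3 h and Gimap5 was not. Neither changed by more than 2-fold, which also held for Gimap8 at its brighter probe. Gimap1 measured 9.96 in WT naive T, 10.05 in Nr4a-TKO naive T, 9.21 in WT iTreg and 9.09 in Nr4a-TKO iTreg, a log2 difference of −0.75 in WT and −0.96 in Nr4a-TKO. Its arrays at 3 h were below both naive arrays, and with median scaling the WT difference was −0.35. The brighter Gimap5 probe measured 8.44, 8.44, 8.55 and 8.79, a difference of 0.11 in WT and 0.35 in Nr4a-TKO. These were 0.46 and 0.65 with median scaling and 0.31 and 0.52 in the deposited table, all within 2-fold. In processed intensity as deposited the same probe read 282, 276, 398 and 441, which had not been brought to a common scale between arrays. This brighter probe is annotated to an Ensembl transcript and the other Gimap5 probe to a RefSeq transcript. The other probe, the dimmest of all member probes, measured 5.31, 5.41, 5.56 and 5.82, with differences of 0.25 and 0.42. Both Gimap5 probes were thus highest on the Nr4a-TKO array at 3 h, and their naive arrays were below the arrays at 3 h of both genotypes. Their first 30 bases show that they read different stretches of the gene:

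Gimap5, brighter probe (chr6:48697390-48697449, plus strand): ccggtacttaacaaggaagacaagaaagac

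Gimap5, dimmer probe (chr6:48703501-48703560, plus strand): attaatttcactctcatttgattcccatgg

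Of Gimap6, Gimap7, Gimap8 and Gimap9, Gimap7 and Gimap9 passed 2-fold in both genotypes, Gimap6 in WT only and Gimap8 in neither at its brighter probe. Gimap7, a small member of the family, had the largest change. It measured 7.73 in WT naive T, 7.62 in Nr4a-TKO naive T, 5.74 in WT iTreg and 5.93 in Nr4a-TKO iTreg, a decrease of 3.97-fold in WT and 3.22-fold in Nr4a-TKO. Of all genes measured, 2.24% had a more negative change in WT and 3.05% in Nr4a-TKO. The scanner software located the Gimap7 spot on 2 of the 4 arrays only, while it called the signal well above background on each, and with an offset of 50 in the background correction the log2 changes were −1.34 and −1.15.

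Gimap9 had probes that gave different sizes. The brighter probe measured 9.48 in WT naive T, 9.18 in Nr4a-TKO naive T, 8.0 in WT iTreg and 7.97 in Nr4a-TKO iTreg, with changes of −1.48 and −1.22. The dimmer one measured 7.69, 7.48, 7.20 and 6.62, with differences of −0.49 and −0.86. Averaged over both probes, the log2 change of Gimap9 was −0.98 in WT and −1.04 in Nr4a-TKO, so the WT call depends on which probe stands for the gene.

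Gimap6 and Gimap8 lay on either side of the 2-fold line. Gimap6, which acts in autophagy, measured 11.33 in WT naive T, 11.12 in Nr4a-TKO naive T, 10.32 in WT iTreg and 10.23 in Nr4a-TKO iTreg, with log2 changes of −1.01 and −0.89. Gimap8, a larger protein with several GTPase domains, measured 10.77, 10.77, 9.77 and 9.86 at its brighter probe, with changes of −0.99 and −0.91. At its dimmer probe it measured 7.42, 7.51, 6.14 and 6.38, with changes of −1.27 and −1.13. For both genes the 2 naive arrays were above the 2 arrays at 3 h at every probe. The WT value of Gimap6 lay under 2-fold in 5 alternatives, from −0.996 without background correction to −0.62 with median scaling, where Gimap8 was −0.59.

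**Figure D2:**
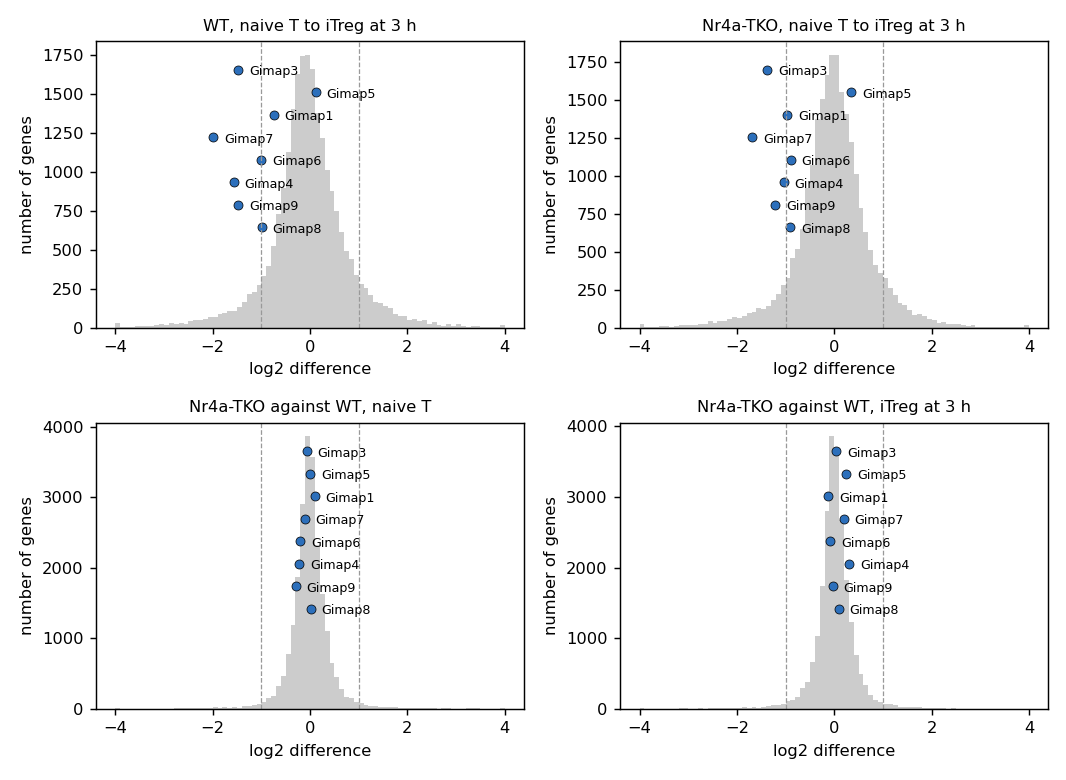
Histograms of log2 differences over all genes measured in the 4 comparisons (horizontal axis log2 difference, drawn at ±4 beyond that range; vertical axis number of genes), with the 8 Gimap genes as labelled points whose height has no meaning and dashed lines at 2-fold. In the upper panels 7 Gimap genes lie left of 0, and in the lower panels all 8 lie between the dashed lines.

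Between genotypes no Gimap gene passed 2-fold, and few genes of the whole array did. At the low shares given here, 0 of 8 does not set the Gimap genes apart. In naive T, 0 of 8 differed by more than 2-fold between the array labelled Nr4a-TKO and the WT array, against 3.6% of 23111 genes, and the log2 differences ran from −0.29 (Gimap9) to 0.09 (Gimap1) with a median of −0.09. At 3 h, 0 of 8 differed by more than 2-fold, against 3.67% of 23497 genes, and the differences ran from −0.12 (Gimap1) to 0.31 (Gimap4) with a median of 0.06. No gene exceeded 2 SD of repeated spots, 0.33 in naive T and 0.37 at 3 h. Of the 12 probes 1 did, the dimmer Gimap9 probe, which was −0.58 at 3 h while the brighter one was −0.03. A difference within the spot error does not show that the genotypes are alike, since the spread between animals is unknown.

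Subtracting the WT change from the Nr4a-TKO change gave a median of 0.18 over the 8 genes (0.02 over 22262 genes), from −0.21 for Gimap1 to 0.53 for Gimap4. Values above 0 here mean a less negative change in Nr4a-TKO, except for Gimap5. The result for Gimap9 was 0.26 at its brighter probe, −0.37 at the dimmer one and −0.05 for their mean. Those for Gimap1 (−0.21), Gimap3 (0.10), Gimap5 (0.23), Gimap6 (0.12) and Gimap8 (0.08) lay within 1 SD of repeated spots (0.25). Gimap4 was the 1 gene beyond 2 SD of repeated spots (0.49) in this subtraction, and its dimmer probe gave 0.28. These values share the 4 arrays with the comparisons above and add no further evidence.

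**Figure D3:**
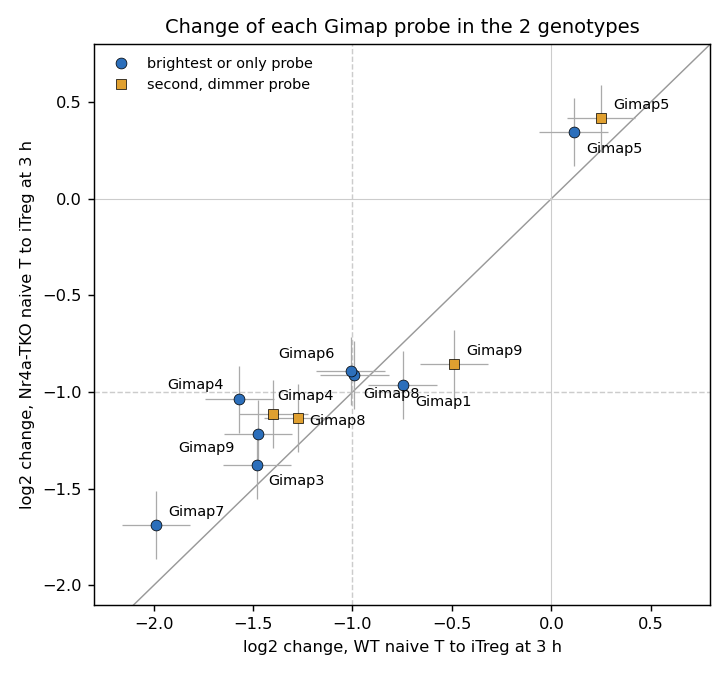
Log2 difference of iTreg at 3 h from naive T in WT (horizontal) and Nr4a-TKO (vertical) for each of the 12 Gimap probes, with bars of 1 SD from repeated spots, a diagonal of equal change and dashed lines at 2-fold lower. Gimap7 lies at the lower left (−1.99 and −1.69), the 2 Gimap5 probes lie above 0 on both axes, and Gimap4 lies farthest above the diagonal (0.53).

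Neighbouring probes were examined to see how the cluster stood within its region. Within 250 kb on either side of the member probes, or between them, lay 31 other probes, of which 25 were well above background on at least 1 array and 17 on all 4. In WT, 3 of 23 measured were lower at 3 h by more than 2-fold and 0 were higher, against 8.47% and 9.23% of 39395 probes. The median of the 23 was −0.38, and that of all probes −0.02. In Nr4a-TKO, 3 of 24 were lower and 0 higher, against 7.92% and 8.19% of 40285 probes. The median of the 24 was −0.35, and that of all probes 0.005. The 12 Gimap probes had 7 lower in WT and 6 in Nr4a-TKO, with medians of −1.14 and −1.0.

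Within the cluster, Gimap1os, a transcript on the strand opposite to Gimap1, measured 8.63 in WT naive T, 8.13 in Nr4a-TKO naive T, 7.20 in WT iTreg and 7.06 in Nr4a-TKO iTreg, with changes of −1.43 and −1.07. It fell in both genotypes. Outside the cluster, 1 of the Lrrc61 probes fell in both genotypes (−1.36 and −1.40), while the other Lrrc61 probe differed by −0.38 and 0.01. Rarres2, which encodes the chemoattractant chemerin, was lower in WT by a log2 difference of −1.05, which is a bound because its signal at 3 h was not well above background. Svs1 was lower in Nr4a-TKO by −1.05, a bound for the same reason. Between genotypes, 1 of 24 neighbouring probes differed by more than 2-fold in naive T (Gm5111, −1.06, a bound as it was not well above background on the Nr4a-TKO array), against 3.51% of 39027 probes, and 0 of 20 at 3 h, against 3.53% of 39790. The probes of Krba1, Zfp467, Sspo, Atp6v0e2, Repin1, Gm30661, AI854703, A130009E19Rik, Tmem176a, Tmem176b, Gm7932, Doxl1 and Doxl2 stayed within 2-fold in both stage comparisons where measured.

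**Figure D4:**
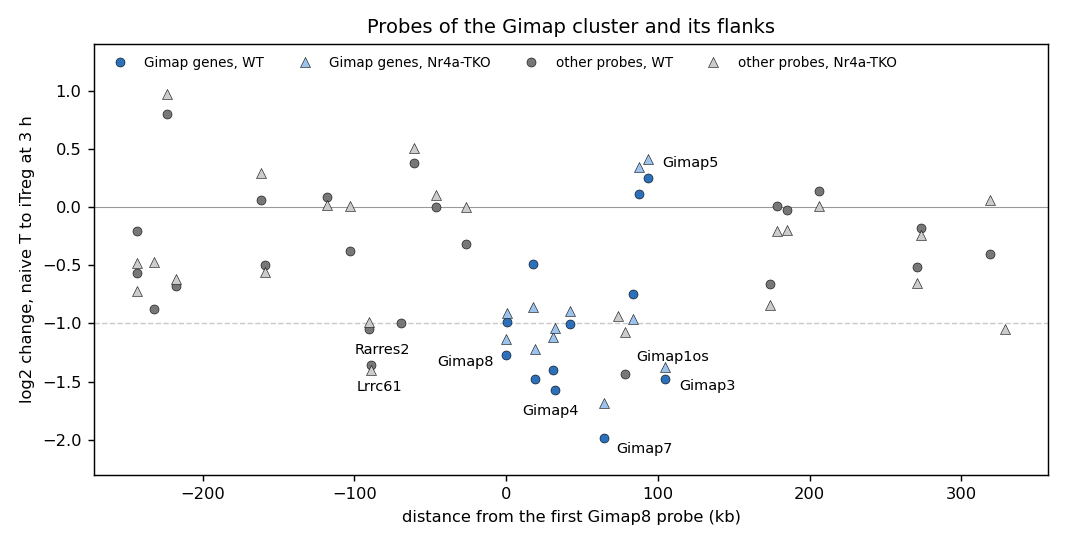
Log2 difference of iTreg at 3 h from naive T (vertical axis) against distance along chromosome 6 from the first Gimap8 probe in kb (horizontal axis), for Gimap probes (blue) and other probes within 250 kb (grey), with circles for WT, triangles for Nr4a-TKO and a dashed line at 2-fold lower. Gimap probes other than those of Gimap5 lie between −0.49 and −1.99, and the other probes have medians of −0.38 and −0.35.

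Transcripts of genes whose proteins are reported to bind or act with Gimap proteins did not move in 1 direction. Of 13 such genes, 4 were higher and 2 lower in WT at 3 h (median −0.12), against 8.4% and 8.55% of all genes. In Nr4a-TKO, 2 were higher and 1 lower (median 0.14), against 7.78% and 7.98%. Bcl2l1, which encodes the survival protein Bcl-xL, rose by 3.45 on the log2 scale in WT and by 4.09 in Nr4a-TKO, and was 1.12 higher in Nr4a-TKO than in WT iTreg. Bax, a pro-apoptotic partner of Gimap4, rose by 1.93 in WT and differed by 0.95 in Nr4a-TKO. Bcl2l11, which encodes the pro-apoptotic protein Bim, rose by 1.54 and 1.92 and read −0.94 in Nr4a-TKO against WT naive T.

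Septins, relatives of the Gimap proteins in structure, had calls in both directions. In WT, 2 of 10 measured were higher and 2 lower (median 0.03), against 8.4% and 8.55% of all genes. In Nr4a-TKO, 1 of 11 was higher and 1 lower (median −0.10), against 7.78% and 7.98%. Counts this small do not set the septins apart from all genes. Septin1, a septin of lymphocytes, fell in both genotypes (−1.80 and −1.42). Septin9 fell in WT (−1.81) and differed by −0.96 in Nr4a-TKO. Septin11, which is widely expressed, rose in both (1.72 and 1.1).

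The interferon-inducible GTPases, which defend cells against intracellular microbes, were lower as a group. Of 15 measured, 11 were lower and 0 higher in either genotype, with medians of −1.83 in WT and −1.58 in Nr4a-TKO. Among all genes, 8.55% were lower and 8.4% higher in WT, and 7.98% and 7.78% in Nr4a-TKO. Gbp7 measured 10.31 and 9.98 on the naive arrays of WT and Nr4a-TKO and 7.28 and 7.65 at 3 h. Gvin1, a very large member, measured 10.74 and 10.90, then 7.72 and 8.29. At 3 h, 1 of 15 differed by more than 2-fold between genotypes, against 3.67% of all genes. This was Gbp6, which read −1.31 in Nr4a-TKO against WT, a bound because it was not well above background on the Nr4a-TKO array.

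Genes of naive T cell quiescence were also mostly lower. Of 16, 10 were lower and 0 higher in either genotype, with medians of −1.46 and −1.22. The shares of all genes were 8.55% lower and 8.4% higher in WT, and 7.98% and 7.78% in Nr4a-TKO. S1pr1, the receptor by which lymphocytes leave lymph nodes, fell in both genotypes (−4.07 in WT, −3.73 in Nr4a-TKO). So did Txnip, an inhibitor of glucose uptake (−4.06 and −3.32). All 8 activation genes were higher in both genotypes (medians 3.17 and 3.36), led in WT by Irf4, a transcription factor induced through the T cell receptor, at 6.35, and in Nr4a-TKO by Irf4 at 5.21.

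**Figure D5:**
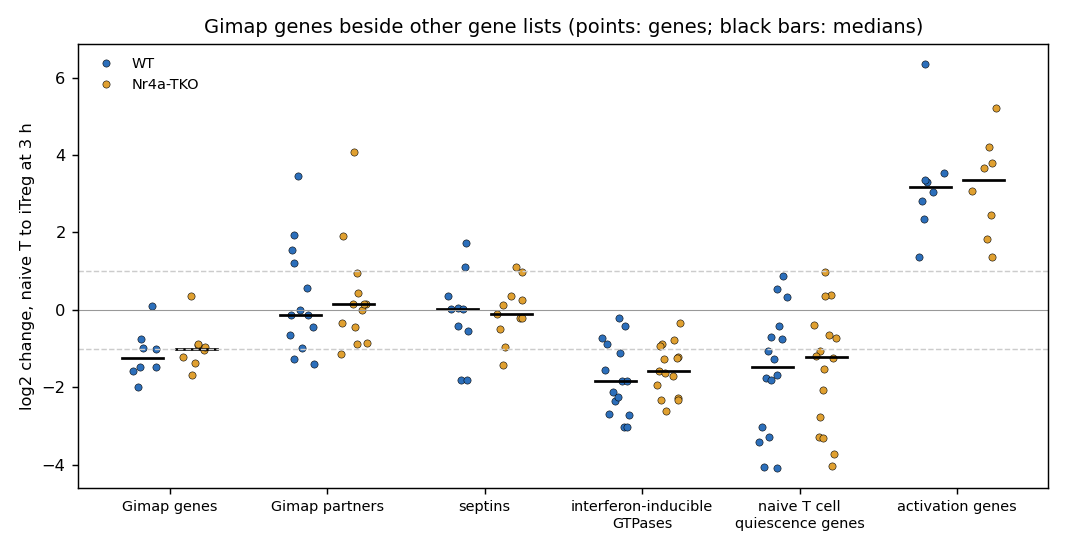
Log2 difference of iTreg at 3 h from naive T (vertical axis) of each measured gene of 6 groups (horizontal axis), with WT in blue, Nr4a-TKO in orange, medians as black bars and dashed lines at 2-fold. The medians of the Gimap genes (−1.24 and −1.0) lie nearest to those of the quiescence genes (−1.46 and −1.22), and those of Gimap partners and septins lie near 0.

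The 4 log2 values of each gene, centred on their mean, were compared with the mean Gimap profile by Euclidean distance. This used the 19799 genes that were bright enough on every array, with the members then left out of the ranking. The nearest were Atp6v1d, a subunit of the lysosomal proton pump (distance 0.01), Gmcl1 (0.02), Supt4b (0.03), Fam193b (0.05) and Herc1, a very large HERC-family protein (0.05). The log2 change of Atp6v1d was −1.14 in WT and its difference −0.98 in Nr4a-TKO. Of the members, Gimap8 (0.13) and Gimap6 (0.18) were closest to the family mean, with 69 and 170 other genes nearer, and Gimap5 was farthest (1.29), with 13372 nearer. Over 4 arrays with 1 dominant contrast, a small distance is common among genes and describes these arrays only.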

How the data were processed

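RNA of 4 samples was hybridized to single-colour Agilent arrays, 1 per condition. Per the labels, spots were read with Agilent Feature Extraction 11.5.1.1. The authors deposited, for each array, the mean intensity of every spot, its local background and a processed intensity, from which local background and spatial trends had been removed. A further table of log2 values was deposited by them. RMA is named in the methods, but these values equal the log2 processed intensity with each array's own 75th percentile subtracted.

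Spot intensities were processed in R 4.3.3 (limma 3.58.1) by RMA-like steps: normexp background correction (offset 0), quantile normalization, log2, and the mean over spots of a probe. Control spots and 115 to 160 flagged spots per array were left out. A gene took its probe with the highest mean. Each array had a floor, its lowest value well above background (3.07 to 3.45), to which dimmer values were raised, and a difference needed at least 1 array with the probe well above background. The number of arrays, and not depth, limits the precision.

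Counts, lists and figures were made in Python 3.11.15 (numpy 2.4.6, pandas 2.3.3, matplotlib 3.10.9). Of the probes, 41700 carry a current symbol, 1517 were named by transcript and 519 by synonym in RefSeq (GRCm38.p6), 8038 by the files' own name and 4831 not at all, leaving 32498 genes with values on all arrays. Counting was tested on simulated data. Alternatives were 75th percentile scaling, median scaling, an offset of 50, no background correction, the deposited table, the mean of all probes, 2 filters on dim probes and thresholds of 1.5-fold and 3-fold.

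The members, gene lists and cell type markers were chosen with earlier results of these data known. Text names every member, genes above background within 250 kb, the targeted genes, the 5 nearest profiles and at most the 2 genes of each list with the largest difference in each comparison. A gene that this rule names is not reported here. The marker genes named in the text and the Nr4a motif with T were added after values were seen.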

Additional observations from a re-analysis of the deposited data

How the results depend on the processing

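No paired analysis was possible because each condition has 1 array, so no replicate could be left out or used as a block either. Over the alternatives 80 values were compared. They were counts of Gimap genes past the threshold in either direction, their median differences, and the median of the Nr4a-TKO change minus the WT change. Of these, 72 stayed within 1.5 times (counts) or 1 SD of repeated spots (medians) of those reported, and 8 moved. All 8 were counts or medians of the change from naive T to 3 h. The counts between genotypes were 0 in every setting. Within the tolerance for counts, the WT count was 4 in place of 5 in several alternatives. These were 75th percentile scaling, median scaling, an offset of 50, no background correction and the deposited table, each time without Gimap6. The WT median was −1.04 with 75th percentile scaling, −1.03 in the deposited table and −0.85 with median scaling. Median scaling gave a Nr4a-TKO median of −0.68 and 2 Nr4a-TKO genes lower, and it raised the WT median of all genes from −0.05 to 0.07, so the scaling lowers the Gimap change by more than it shifts the whole. At 1.5-fold, 7 Gimap genes were lower in Nr4a-TKO. At 3-fold, 1 was lower in WT and 1 in Nr4a-TKO. The cause of these shifts was not tested. Of the 320 values of single Gimap genes 38 moved. The sign changed in 4 of the 320, all small: Gimap9 between genotypes at 3 h, −0.03 as reported, was 0.05 with 75th percentile scaling and in the deposited table, Gimap3 there was −0.01 with median scaling, and the Gimap9 difference of changes was −0.05 for the mean of its probes. All 128 values of their change from naive T to 3 h kept their sign. Part of this stability was fixed in advance. Under the 2 filters on dim probes no Gimap value, count or median could move, because all 12 member probes were well above background on all 4 arrays. The mean of all probes could not move Gimap1, Gimap3, Gimap6 or Gimap7, which had 1 probe each. In every setting with the 2-fold threshold Gimap3, Gimap4 and Gimap7 stayed lower in WT and Gimap3 and Gimap7 in Nr4a-TKO. The number of all genes higher and lower in WT at 3 h was 1950 and 1985, and 958 and 933 with an offset of 50, 3919 and 4071 at 1.5-fold and 769 and 882 at 3-fold. In Nr4a-TKO it was 1845 and 1892, and 846 and 816, 3867 and 3955, and 629 and 819. Between genotypes it was 443 and 389 in naive T and 409 and 453 at 3 h, and with an offset of 50 it was 101 and 87, and 75 and 102. Without a filter on dim probes it was 922 and 853, and 907 and 871. Low signal limits the Gimap7 and dimmer Gimap5 probes most, as their intensities are nearest to background.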
